A study of Mus musculus with 2 samples.

Results

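The subject is a set of 6 red blood cell genes among the 23997 gene rows of the deposited table: the embryonic globin genes Hba-x, Hbb-y and Hbb-bh1, the adult alpha globin genes Hba-a1 and Hba-a2, and the heme synthesis gene Alas2. They were picked by gene symbol, with Hba-x picked because its ratio between the libraries was among the lowest. Of the 6, 5 have a row of their own. Hba-a1 has none, and its value stands in a row that joins Hba-a1 and Hba-a2. The adult beta globin genes were added for comparison.

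Polyadenylated RNA was sequenced from 1 library labelled Aire-KO (genotype Aire-/-) and 1 library labelled WT. Both came from sorted medullary thymic epithelial cells (mTECs) of the MHC-II high kind, taken from pooled mice of strain C57BL/6. The labels do not state the pool sizes, the ages or sexes of the mice, or the Aire allele. As each genotype has 1 library, no difference below has a replicate check, and none is tested. The unit is FPKM as the authors deposited it, which scales fragments by transcript length and library size. The Aire transcript itself stood at 640.2 FPKM in the library labelled Aire-KO, against 220.6 FPKM in that labelled WT. A gene-level value cannot isolate a deleted part, so it does not check the label, and directions are given by library label. The steps between low values put the depth at about 55000000 and 47900000 fragments in the libraries labelled Aire-KO and WT.

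Hemoglobin joins alpha-type and beta-type globin chains, each holding a heme group. In the mouse embryo, primitive red cells that arise in the yolk sac use the zeta chain (Hba-x) with the epsilon-y (Hbb-y) and beta-h1 (Hbb-bh1) chains. Definitive red cells of the fetal liver and bone marrow use the adult alpha and beta chains. Alas2 encodes the erythroid enzyme for the committed step of heme synthesis, and its housekeeping counterpart is Alas1. mTECs transcribe many genes of other tissues and present the products to developing T cells, and Aire is a nuclear protein that drives much of this transcription.

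The globin promoters are shown because embryonic and adult genes of the same clusters had different ratios between the libraries. Each is the stretch of 200 bases before the RefSeq transcript start (build GRCm38.p6), 5′ to 3′ on the gene's strand. Capitals mark matches on either strand to 5 short motifs. GATAA is the core of a site for GATA factors. The letters CACCC are bound by Klf factors such as Klf1. The third motif, CCAAT, is a common promoter box. The forms of the TATA box were TATAA and its globin variant CATAAA, of which TATAA is the more common over all promoters.
Hba-x, chr11:32276400-32276599, plus strand: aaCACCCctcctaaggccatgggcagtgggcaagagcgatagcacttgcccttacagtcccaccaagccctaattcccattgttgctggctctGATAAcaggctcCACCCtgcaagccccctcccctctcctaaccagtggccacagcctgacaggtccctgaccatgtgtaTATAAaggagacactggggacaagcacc
Hbb-y, chr7:103853208-103853407, minus strand: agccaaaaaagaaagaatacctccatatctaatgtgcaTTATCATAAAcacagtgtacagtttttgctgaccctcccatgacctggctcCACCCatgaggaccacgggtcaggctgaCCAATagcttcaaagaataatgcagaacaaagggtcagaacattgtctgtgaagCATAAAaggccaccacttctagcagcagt
Hba-a1, chr11:32283472-32283671, plus strand: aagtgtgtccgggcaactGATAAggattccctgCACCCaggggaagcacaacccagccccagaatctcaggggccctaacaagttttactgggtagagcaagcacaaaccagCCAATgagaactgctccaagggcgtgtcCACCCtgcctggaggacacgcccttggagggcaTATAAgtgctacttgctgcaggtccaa
Hbb-bs, chr7:103827929-103828128, minus strand: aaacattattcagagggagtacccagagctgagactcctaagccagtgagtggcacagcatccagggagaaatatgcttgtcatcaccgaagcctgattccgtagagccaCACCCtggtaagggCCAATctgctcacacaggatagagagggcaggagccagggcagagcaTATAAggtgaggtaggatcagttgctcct
Over 32505 promoter windows of this length, the GATA motif occurred in 18.0%, the Klf motif in 45.7%, the CCAAT box in 29.3%, the common TATA form in 18.5% and the globin variant in 8.51%. The windows of embryonic Hba-x and Hbb-y and of adult Hba-a1 each held the GATA and Klf motifs, and the Hbb-bs window held the Klf motif without the GATA motif. In Hbb-y the GATA motif lies on the reverse strand, at -162 to -158 from the transcript start. Its last base is also the first of a CATAAA match at -158 to -153. Another CATAAA match, nearer the start at -29 to -24, is apart from it. The CCAAT box was in the Hbb-y, Hba-a1 and Hbb-bs windows and not in that of Hba-x. The longest run of bases shared by the Hba-x and Hba-a1 windows was 10, while the Hba-a1 and Hba-a2 windows shared a run of 197. These matches are descriptions of letters and say nothing of what binds there.

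The embryonic globins were the genes of the set that differed. Hba-x, the embryonic alpha-type chain (mm10 chromosome 11, 32276600 to 32278115), was measured at 0.0858 FPKM in the library labelled Aire-KO, against 52.1 FPKM in that labelled WT. Hbb-y, an embryonic beta-type chain (chromosome 7, 103851754 to 103853207), stood at 0.123 FPKM in the library labelled Aire-KO, against 28.5 FPKM in that labelled WT. Hbb-bh1, the other embryonic beta-type chain (chromosome 7, 103841638 to 103843162), had a value of 0 in the library labelled Aire-KO, against 7.86 FPKM in that labelled WT. Hba-x was above 29.9% of all gene rows in the library labelled Aire-KO, against 92.7% in that labelled WT. Hbb-y was above 31.7% of gene rows in the library labelled Aire-KO, against 86.7% in that labelled WT. Counted from the lowest log2 ratio of 15906 genes averaging at least 0.5 FPKM, Hba-x ranked 10 and Hbb-y 39, which is how Hba-x was chosen and no result. Hbb-bh2, a further gene of the beta cluster, was listed at 0 in both libraries.

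The low values in the library labelled Aire-KO rest on very few fragments. Hba-x rested on about 3 fragments in the library labelled Aire-KO, against 1501 in that labelled WT. Its log2 ratio was -8.13 with 0.1 FPKM added to both values. Without that addition the ratio was -9.25, with an exact 95% counting interval of -11.4 to -7.59. Hbb-y rested on about 3 fragments in the library labelled Aire-KO, against 591 in that labelled WT. Its log2 ratio was -7.00 with 0.1 FPKM added, and -7.85 without (interval -10.1 to -6.23). The intervals of Hba-x and Hbb-y overlap, so their order is not resolved by counting. For Hbb-bh1, 3 fragments in the library labelled Aire-KO would have read as 0.135 FPKM, and 156 fragments stood in that labelled WT. Its log2 ratio depends on the added amount and is not given. Intervals and this limit cover counting error only, and PCR copies were not marked as such by molecular identifiers.

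**Figure D1:**
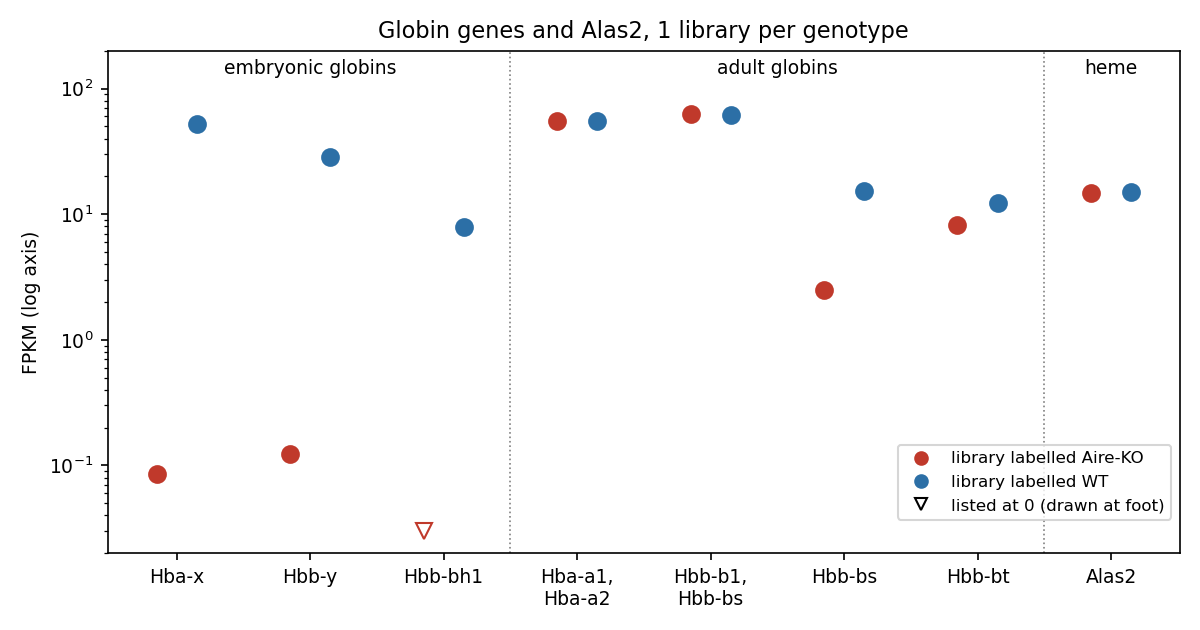
FPKM of each globin row and of Alas2 on a log axis, 1 point per library, with the library labelled Aire-KO left of the library labelled WT in each pair. The open triangle marks Hbb-bh1, whose value was 0 in the library labelled Aire-KO. The 3 embryonic globins lie at 0.123 FPKM or less in the library labelled Aire-KO and between 7.86 and 52.1 FPKM in that labelled WT, and the joined adult rows and Alas2 lie at nearly equal heights.

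The adult alpha globin genes differed by less than counting error between the libraries. The joined row of Hba-a1 and Hba-a2 stood at 55.6 FPKM in the library labelled Aire-KO, against 55.3 FPKM in that labelled WT, a log2 ratio of 0.01. Its counting interval without added FPKM was -0.10 to 0.12. The row named Hba-a2 alone held 0.00528 FPKM in the library labelled Aire-KO, against 0.00561 FPKM in that labelled WT, below 1 estimated fragment in either. This does not measure Hba-a2. In the reference transcripts, 86.9% of the stretches of 50 bases in Hba-a2 occur in Hba-a1 as well, so the copies cannot be told apart here. In the isoform table the Hba-a1 transcript was also placed at the Hba-a2 locus, with 14.0 FPKM in the library labelled Aire-KO, against 14.2 FPKM in that labelled WT. None of the stretches of 50 bases in Hba-x occurs in Hba-a1 or Hba-a2, so exact reads of that length or more cannot be confused between the embryonic and adult alpha genes.

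Adult beta globin was split over several rows. The row that joins Hbb-b1 and Hbb-bs stood at 62.7 FPKM in the library labelled Aire-KO, against 61.8 FPKM in that labelled WT. A separate Hbb-bs row with the same coordinates (chromosome 7, 103826523 to 103827929) stood at 2.48 FPKM in the library labelled Aire-KO, against 15.2 FPKM in that labelled WT. How the authors' tool divided fragments between these overlapping rows is not known, so the joined and the separate value are both uncertain. Summed, the rows gave 65.2 FPKM in the library labelled Aire-KO, against 77.0 FPKM in that labelled WT. Hbb-bt, the neighbouring adult gene, stood at 8.14 FPKM in the library labelled Aire-KO, against 12.2 FPKM in that labelled WT, a log2 ratio of -0.58. Its counting interval without added FPKM was -0.84 to -0.33, so unlike the joined adult alpha row it differed by more than counting error. Hbb-bs and Hbb-bt share 65.8% of the stretches of 50 bases in Hbb-bs, and neither shares any with Hbb-y or Hbb-bh1.

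Alas2, on chromosome X (150547385 to 150570622), was level between the libraries like the joined adult alpha row. It stood at 14.8 FPKM in the library labelled Aire-KO, against 14.98 FPKM in that labelled WT, a log2 ratio of -0.02 (interval without added FPKM -0.12 to 0.09). Its main isoform, NM_009653, carried 84.8% of its FPKM in the library labelled Aire-KO, against 83.3% in that labelled WT. In the authors' deposited table, q was 0.607 for Hba-x, 0.708 for Hbb-y, 0.125 for Hbb-bh1, and 0.999 for Alas2 and the joined adult alpha row. With 1 library on each side, q says nothing of the spread between mice.

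Embryonic globins summed to 0.209 FPKM in the library labelled Aire-KO, against 88.5 FPKM in that labelled WT. Adult globins summed to 128.9 FPKM in the library labelled Aire-KO, against 144.4 FPKM in that labelled WT, a log2 ratio of -0.16. That sum takes gene rows and leaves out the Hba-a1 transcript placed at the Hba-a2 locus. This copy stood at 14.0 FPKM in the library labelled Aire-KO, against 14.2 FPKM in that labelled WT. With it the embryonic shares of alpha-type FPKM below would be smaller, and the ratios to Alas2 larger. Hba-x made up 0.154% of alpha-type globin FPKM in the library labelled Aire-KO, against 48.5% in that labelled WT. The embryonic beta-type genes made up 0.168% of beta-type globin FPKM in the library labelled Aire-KO, against 29.0% in that labelled WT. Embryonic and adult globins together summed to 129.1 FPKM in the library labelled Aire-KO against 232.9 FPKM in the library labelled WT, and most of that difference of -103.8 FPKM lay in the embryonic genes (-88.3 FPKM). Adult globins stood at 8.70 times the level of Alas2 in the library labelled Aire-KO, against 9.64 times in that labelled WT. In a bulk library, fewer cells of a type and less RNA per cell cannot be told apart.

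**Figure D2:**
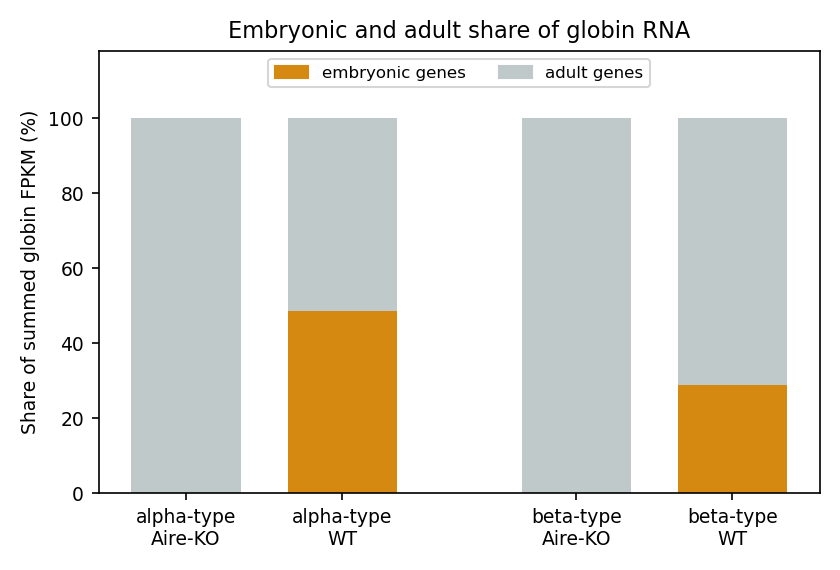
Share in percent of the summed FPKM of alpha-type and of beta-type globin genes that came from embryonic genes (orange) and adult genes (grey), with the library labelled Aire-KO left of the library labelled WT. Embryonic genes made up 0.154% of alpha-type and 0.168% of beta-type FPKM in the library labelled Aire-KO, against 48.5% and 29.0% in that labelled WT. Adult alpha-type FPKM is that of the gene rows, without the Hba-a1 transcript placed at the Hba-a2 locus.

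Within 100 kb of the alpha globin genes, 6 further genes all reached a mean of 0.5 FPKM over the libraries. Counting as lower or higher a difference of 2-fold or more with 0.1 FPKM added, 0 of the 6 were lower and 1 was higher. Among all 15906 genes at that mean, 20.5% were lower and 7.09% were higher (27.6% together), with a median log2 ratio of 0.05. With 6 genes, a count of 0 lower is near that share. Of genes averaging at least 2 FPKM, 14.3% were lower. Nprl3, a regulator of nutrient signalling whose introns hold the alpha globin enhancers, stood at 8.30 FPKM in the library labelled Aire-KO, against 7.92 FPKM in that labelled WT. The DNA repair gene Mpg, which shares a locus with Nprl3 in the files, stood at 11.5 FPKM in the library labelled Aire-KO, against 11.04 FPKM in that labelled WT. The higher gene was Sh3pxd2b, a podosome adaptor gene, at 6.41 FPKM in the library labelled Aire-KO, against 3.11 FPKM in that labelled WT. The others, Il9r, Snrnp25 and Rhbdf1, had log2 ratios of 0.76, 0.93 and -0.05. The theta-type globin genes Hbq1a and Hbq1b, which flank the second adult alpha copy, had a value of 0 in the library labelled Aire-KO. They stood at 0.152 and 0.151 FPKM in the library labelled WT, about 3 fragments each.

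The beta globin genes lie among olfactory receptor genes. All 13 further genes within 100 kb were olfactory receptors, with a value of 0 in the library labelled Aire-KO and no more than 0.141 FPKM in that labelled WT. Of the 13, 9 were listed at 0 in both. Hbb-y and Hbb-bh1 and the adult globins were thus the genes in this stretch above 0.141 FPKM in the library labelled WT. Around Alas2, 3 of 5 further genes reached the mean of 0.5 FPKM and none was lower or higher. Among all genes 20.5% were lower and 7.09% higher, so such a count among 3 genes is near those shares. The 3 genes were Tmem29, Apex2 and Pfkfb1, with log2 ratios from -0.19 to 0.24.

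**Figure D3:**
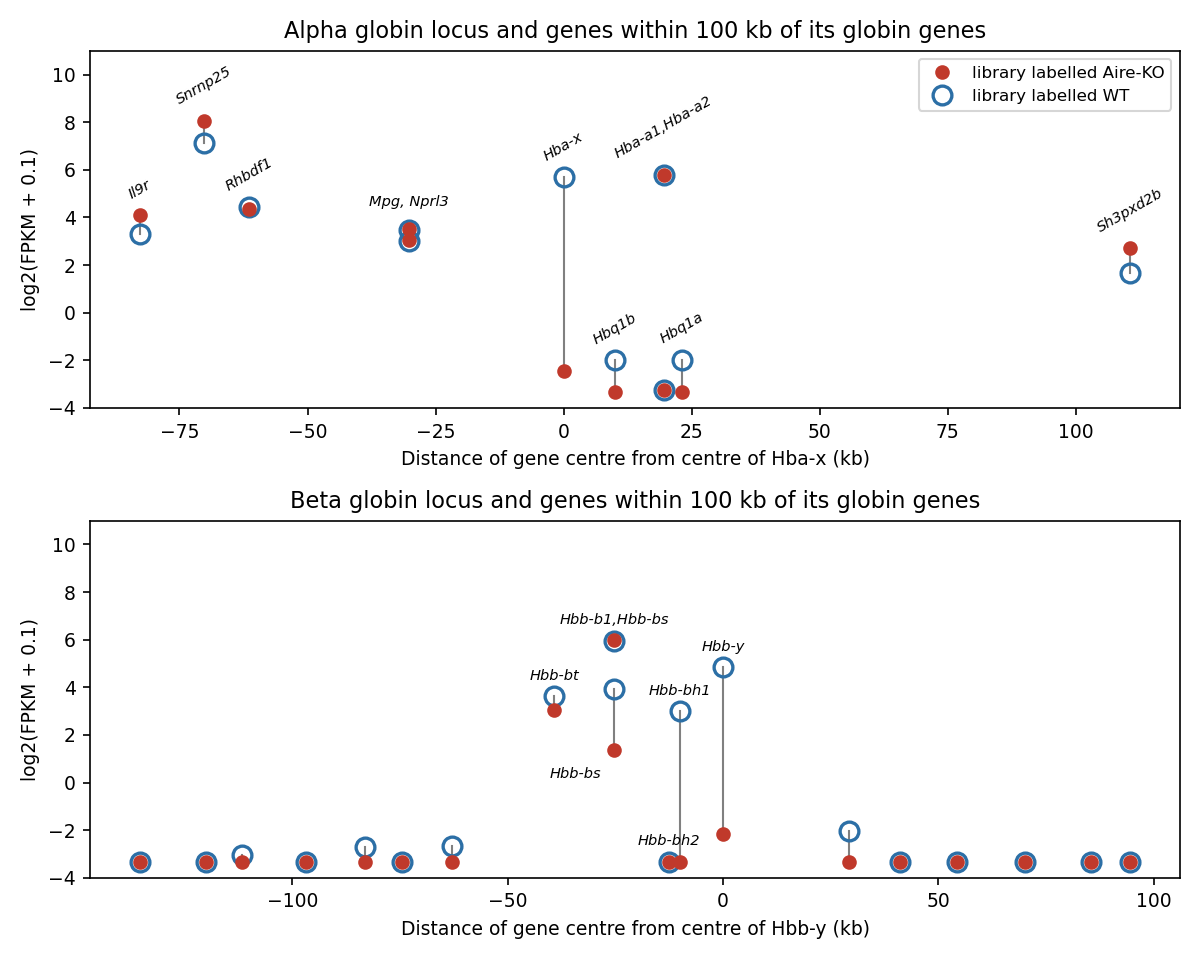
Log2(FPKM + 0.1) of each gene within 100 kb of the alpha (top) and beta (bottom) globin genes against the distance in kb of the gene's centre from the centre of Hba-x or Hbb-y. Filled points are the library labelled Aire-KO, open circles the library labelled WT, and a line joins the values of a gene. The longest lines belong to Hba-x, Hbb-bh1 and Hbb-y, while the joined adult rows overlap, as does the near-0 row named Hba-a2. The joined adult alpha row is drawn at its deposited coordinates, those of the Hba-a2 locus. Its value equals that of the Hba-a1 transcript at the Hba-a1 locus, which lies nearer to Hba-x.

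Globins outside the clusters went in both directions. With the theta-type genes they summed to 82.8 FPKM in the library labelled Aire-KO, against 46.9 FPKM in that labelled WT. Mb, the muscle oxygen store myoglobin, stood at 0.279 FPKM in the library labelled Aire-KO, against 3.60 FPKM in that labelled WT. Ngb, the neuronal globin, stood at 0.204 FPKM in the library labelled Aire-KO, against 2.48 FPKM in that labelled WT. Cygb, a widely expressed globin, stood at 45.0 FPKM in the library labelled Aire-KO, against 26.9 FPKM in that labelled WT. Adgb, a large testis globin, was the higher one by the 2-fold rule, at 37.4 FPKM in the library labelled Aire-KO, against 13.6 FPKM in that labelled WT.

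Lists of other genes of the red cell programme were mixed. In the heme synthesis list 0 of 9 genes were lower and 0 higher, against 20.5% and 7.09% of all genes. All 9 averaged at least 2 FPKM, where 14.3% of all genes were lower. With 9 genes, a count of 0 is near these shares. The median log2 ratio of the list was 0.06. Alas1 stood at 172.6 FPKM in the library labelled Aire-KO, against 205.3 FPKM in that labelled WT. Urod, another abundant gene of the list, had a log2 ratio of 0.06. Of the iron supply list, 2 of 13 measured genes were lower and 2 higher, with a median of 0.06. That is 15.4% each, and the lower count is near the share of all genes. The iron exporter gene Slc40a1 was lower (0.49995 FPKM in the library labelled Aire-KO against 5.22 FPKM in that labelled WT), and the transferrin receptor gene Tfrc was higher (43.5 FPKM in the library labelled Aire-KO against 18.1 FPKM in that labelled WT). Steap3, an iron reductase gene, was also lower. Ftl1, the ferritin light chain gene, was also higher, at 1794 FPKM in the library labelled Aire-KO, against 869.1 FPKM in that labelled WT.

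Of 16 measured red cell membrane genes, 8 were lower and 0 higher, with a median of -0.93, where 20.5% of all genes were lower and 7.09% higher. The anion exchanger gene Slc4a1 stood at 0.0800 FPKM in the library labelled Aire-KO, against 1.26 FPKM in that labelled WT. The blood group gene Kel stood at 0.0157 FPKM in the library labelled Aire-KO, against 1.52 FPKM in that labelled WT. The water channel gene Aqp1, which kidney and endothelium also express, stood at 2.11 FPKM in the library labelled Aire-KO, against 23.2 FPKM in that labelled WT. The others were Rhd, Add2, Ank1, Sptb and Epb4.2, genes of the blood group antigens and of the membrane skeleton. Epb4.1, a membrane skeleton gene and one of the most abundant of the list, had a log2 ratio of -0.64. Rhag was below the minimum mean, with a value of 0 in the library labelled Aire-KO.

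Of 15 measured genes of red cell metabolism and hemoglobin handling, 5 were lower and 1 higher (33.3% and 6.67%, against 20.5% and 7.09% of all genes), with a median of -0.57. The carbonic anhydrase gene Car1 stood at 0.0364 FPKM in the library labelled Aire-KO, against 10.3 FPKM in that labelled WT. Car2, a related enzyme gene, stood at 2.77 FPKM in the library labelled Aire-KO, against 22.2 FPKM in that labelled WT. Pklr, the pyruvate kinase gene of red cells and liver, stood at 3.81 FPKM in the library labelled Aire-KO, against 22.4 FPKM in that labelled WT. The antioxidant enzyme genes Prdx2 and Gpx1, the most abundant of the list, had log2 ratios of 0.27 and -0.81. Bpgm and Trim10 were the other lower genes. Bnip3l, which is needed to clear mitochondria from maturing red cells, was the higher one, at 131.8 FPKM in the library labelled Aire-KO, against 37.6 FPKM in that labelled WT.

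Klf1, the erythroid Kruppel-like factor, stood at 0.270 FPKM in the library labelled Aire-KO, against 1.35 FPKM in that labelled WT. Gata1 stood at 0.128 FPKM in the library labelled Aire-KO, against 0.480 FPKM in that labelled WT, below the minimum mean. Of 16 measured regulators, 6 were lower (37.5%) and 0 higher, with a median of -0.02, against 20.5% and 7.09% of all genes. Klf1, Nfe2 and Gata2 averaged below 2 FPKM, where the share of all genes lower was above 20.5%. Besides Klf1 the lower ones were Gata2, Gfi1b, Nfe2, Lmo2 and Klf3. Gfi1b, a blood lineage repressor, stood at 2.52 FPKM in the library labelled Aire-KO, against 8.72 FPKM in that labelled WT. The most abundant ones, Nfe2l1, Ldb1 and Mafk, had log2 ratios of 0.02, -0.06 and -0.70. Bcl11a, a known repressor of embryonic globin genes, stood at 3.28 FPKM in the library labelled Aire-KO, against 2.29 FPKM in that labelled WT. Zbtb7a, another such repressor, stood at 17.1 FPKM in the library labelled Aire-KO, against 16.6 FPKM in that labelled WT. Across the heme, iron, membrane, metabolism and regulator lists together, a grouping made after their values were seen, 21 of 69 measured genes were lower and 3 higher, that is 30.4% and 4.35%, against 20.5% and 7.09% of all genes.

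**Figure D4:**
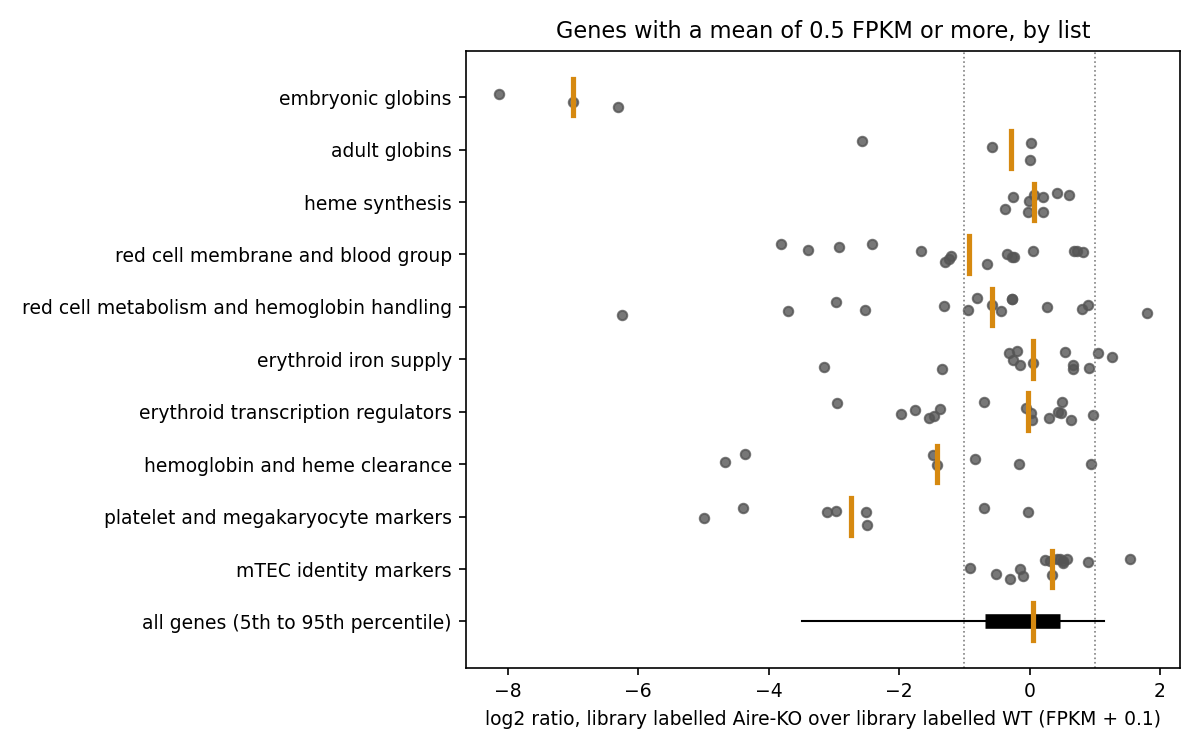
Log2 ratio of the library labelled Aire-KO over the library labelled WT (FPKM + 0.1) for genes averaging at least 0.5 FPKM, 1 point per gene, by list. Orange bars are medians, dotted lines mark 2-fold, and the bottom row gives all genes (thin line 5th to 95th percentile, thick line 25th to 75th). The point at the right of the embryonic globins is Hbb-bh1, whose position is set by the added 0.1 FPKM. The heme synthesis genes lie within 2-fold, and the platelet markers have a median of -2.74.

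Of 7 measured genes that clear free hemoglobin and heme, 4 were lower and 0 higher, where 20.5% of all genes were lower. Hp, the hemoglobin-binding plasma protein haptoglobin, stood at 2.04 FPKM in the library labelled Aire-KO, against 54.2 FPKM in that labelled WT. Hpx, the heme-binding hemopexin, stood at 0.972 FPKM in the library labelled Aire-KO, against 21.8 FPKM in that labelled WT. Hmox1, the heme-degrading enzyme gene, stood at 46.3 FPKM in the library labelled Aire-KO, against 129.3 FPKM in that labelled WT. The fourth was Lrp1, which encodes a receptor that takes up hemopexin with its heme.

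Most measured platelet and myeloid markers were lower, where 20.5% of all genes were lower. Of 8 measured platelet and megakaryocyte markers, 6 were lower and 0 higher, and the 10 genes of the list summed to 12.02 FPKM in the library labelled Aire-KO, against 59.2 FPKM in that labelled WT. Pf4, a platelet chemokine gene, stood at 4.37 FPKM in the library labelled Aire-KO, against 34.99 FPKM in that labelled WT. The other lower ones were Ppbp, Gp9, Gp1bb, Itga2b and Treml1, the last with a value of 0 in the library labelled Aire-KO. Of 9 measured dendritic cell and macrophage markers, 6 were lower and 0 higher, with a sum over 13 genes of 492.4 FPKM in the library labelled Aire-KO, against 744.7 FPKM in that labelled WT. The lower ones were Itgam, Itgax, Emr1, Csf1r, Flt3 and Sirpa, while the most abundant, Lyz2, was within 2-fold. Red cell markers, a list of 13 rows that includes the adult globins and Alas2, summed to 148.2 FPKM in the library labelled Aire-KO, against 172.1 FPKM in that labelled WT. Of its 9 measured rows 4 were lower, namely Slc4a1, Epb4.2, Klf1 and the separate Hbb-bs row, and 0 were higher. The separate Hbb-bs value is uncertain, and summed with the joined row at its coordinates the log2 ratio was -0.24, within 2-fold. Slc4a1 and Klf1 averaged below 2 FPKM. Of 10 measured thymocyte markers 3 were lower (Lck, Cd3g and Dntt) and 0 higher, with a median of -0.39. The most abundant of them, Thy1, had a log2 ratio of 0.63, and Cd4 had -0.18. Of 6 B cell markers 1 was lower (Cd79a) and 1 higher (Pax5), with a median of 0.14. The most abundant of these, Cd79b, had a log2 ratio of 0.03. Of 7 measured fibroblast and endothelium markers 2 were lower (Pecam1 and Cdh5) and 1 higher (Dcn). With so few genes, the thymocyte, B cell, and fibroblast and endothelium counts are near the shares of all genes. The part of any of these cell types in the globin values was not tested. Markers of mTECs themselves ranged from 14.97 to 11948 FPKM in the library labelled Aire-KO, and from 16.03 to 8398 FPKM in that labelled WT. The highest in each was H2-Aa, an MHC class II gene. Of these 15 markers only Aire passed the 2-fold rule.

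The genes nearest to Hba-x were picked by distance on the log2(FPKM + 0.1) values of the 2 libraries. They were Prss29, a serine protease gene (distance 0.28), the pancreatic phospholipase gene Pla2g1b (0.41), Dcpp1 (0.49), Sbpl (0.61) and the gut hormone gene Gip (0.66). With a value near 0 in the library labelled Aire-KO, these distances rest on a few fragments. None of the 5 is a red cell gene. The genes nearest to Alas2 were the broadly expressed Setd5 (0.02), Ube3c (0.02), Chmp4c (0.03), Inadl (0.04) and Ogfod2 (0.04).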

How the data were processed

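Gene and isoform tables hold FPKM made by the authors, 1 column per library. The submitters' processing notes name TopHat2, Cuffdiff and build mm10, whose versions, annotation and scaling were not stated. The p-values and q-values are the authors' own, as deposited, and were only quoted. In 5 gene rows without an estimate (status HIDATA) values were set to missing.

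With 1 library per group no test was made. Ratios are log2((Aire-KO + 0.1)/(WT + 0.1)), which understates changes of low genes. Lower and higher mean 2-fold or more at a mean of 0.5 FPKM or more. Depth was fitted to the whole-fragment steps of low values of genes with 1 isoform of 2000 bp or more. The fit was checked on simulated whole counts only, which does not show that it holds for the authors' estimated values. In the libraries labelled Aire-KO and WT, 78.4% and 76.6% of 459 and 188 low values of such genes lay within 0.1 of a whole number. Depth and the transcript length lost at the ends (210 and 200 bp) trade off, so fragment numbers of short globin transcripts are approximate. Transcripts came from GENCODE release M21. Python 3.11.15, numpy 2.4.6, pandas 2.3.3 and scipy 1.17.1 were used.

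Members, lists and motifs were chosen with earlier results of these data known. The text names the members, globins, genes within 100 kb of them, the 2-fold changed and most of the 3 most expressed genes of each list, Aire and the 5 nearest genes. Further genes (Gata1, Rhag, Bcl11a, Zbtb7a) were named after their values were seen. Older symbols were matched through the RefSeq table, and Ahsp was not analysed here. Some genes of the lists are not reported by name here.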

Additional observations from a re-analysis of the deposited data

How the results depend on the processing

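Every alternative compared the same 2 libraries, so none measures the spread between animals. No paired analysis was possible because there is 1 library per genotype. The log2 ratio of Hba-x was -8.13 as reported and -5.61 with 1 FPKM added. With 0.01 FPKM added, with no addition (chosen after seeing the data), with centring on the median of all genes, with equal FPKM sums or from the isoform table, it lay between -9.25 and -8.13, within its counting error. The summed adult globins (-0.24 to -0.15) and Alas2 (-0.09 to -0.01) moved little under the same alternatives. The number of lower genes in the erythroid lists was 21 of 69 (30.4%), but 12 of 55 at a mean of 2 FPKM or more and 10 of 69 at 4-fold. Over all genes, 3260 of 15906 (20.5%) were lower, 5180 without a minimum and 1804 at a mean of 2 FPKM or more (14.3% of 12611). At 4-fold, chosen after seeing the data, 1893 of 15906 were lower. The share of the erythroid lists lay closer to that of all genes at 4-fold than at 2-fold. Depth limits the embryonic globins in the library labelled Aire-KO, where Hba-x and Hbb-y rest on about 3 fragments each.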
